A study of Homo sapiens with 6 samples.

Results

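The genes described here are 38 genes of lysosome acidification, lysosomal membranes and lysosomal breakdown, measured in HaCaT keratinocytes after Agrin knockdown. They were chosen by name, from a list written with earlier results of these data known, and kept if they reached 0.5 CPM (read counts scaled to the size of each library) in at least 3 of 6 libraries. All 38 were present and passed, among 13050 genes that did so in the whole table. The lowest value of any of them was 5.74 CPM, so none entered through 1 group alone. HaCaT is an established, immortalised human keratinocyte line. The cells had been treated with a control siRNA (siControl, 3 libraries) or with an siRNA against Agrin (siAgrin, 3 libraries), and no other agent or allele separated the groups. Agrin is a heparan sulfate proteoglycan of the extracellular matrix, and the comparison asks which genes differ in level when it is depleted. The data come from 1 cell line grown in culture, without the other cells of skin. Polyadenylated RNA was sequenced from stranded libraries.

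The knockdown and the cell identity were checked first. AGRN measured 797, 833 and 833 CPM in siControl against 403, 412 and 387 CPM in siAgrin libraries, so the groups did not overlap. The libraries held 40958553 to 43312708 reads in the listed genes. All 10 keratinocyte markers were listed, with KRT5 at 4249 to 5099 CPM and CDH1 at 286 to 315 CPM. Of these 10, 3 rose upon Agrin knockdown and none fell, beside 9.14% and 9.07% of all tested genes. KRT14 went from 1942 ± 111 to 2950 ± 235 CPM and ITGA6 from 571 ± 20.5 to 828 ± 29.9 CPM (SD, n = 3). DSP went from 623 ± 4.43 to 901 ± 39.9 CPM (SD, n = 3). The summed level of the 10 ranged from 11487 to 12351 CPM in siControl and from 12897 to 14896 CPM in siAgrin libraries, and the part of this shift in the results below was not tested. Of 8 macrophage and leukocyte markers only CD14 was listed, at 0.0218 to 0.301 CPM, of 6 endothelial markers only TEK, at 0 to 0.0437 CPM, and of 5 melanocyte markers only PMEL, at 1.99 to 3.87 CPM. Of 7 fibroblast markers 5 passed the filter and none passed the test, and the summed level of the 7 was 12.2 to 19.6 CPM in siControl libraries and 9.47, 46.7 and 21.9 CPM in siAgrin 1, 2 and 3. The part of the fibroblast markers was not tested either, and counts without siAgrin 2 are given. The labels do not say whether the 3 libraries of a group came from separate cultures, so p-values measure the spread between these libraries.

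Lysosomes are the acidic compartments in which cells break down proteins, glycans and lipids. The vacuolar ATPase (V-ATPase) acidifies them: its cytosolic V1 sector hydrolyses ATP and turns a rotor in the membrane sector V0, which carries protons into the lumen. Heavily glycosylated membrane proteins line the inner face, and soluble hydrolases arrive from the Golgi. Many of these genes are known targets of the transcription factors TFEB and TFE3, which bind a palindromic element called CLEAR that contains the E-box CACGTG. In skin, lysosomes and related organelles take part in turnover of keratinocyte contents and in barrier lipid processing.

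Upon Agrin knockdown 5 of the 38 genes rose and 3 fell, and the other 30 did not pass the test. The genes that rose were LAMP1, SCARB2, ATP6V1B2, GLA and NEU1, each by 14% to 23.1% of the control mean. Those that fell were GAA, GRN and ASAH1, which changed by -54.3%, -38.2% and -18.2% of the control mean. The test was limma on log2(CPM + 0.5) over all 13050 genes, at an adjusted p below 0.01, and a log2 fold change above 0 means a higher level in siAgrin. The 8 calls are 21.1% of the 38 genes, beside 18.2% of all tested genes. By direction 13.2% rose and 7.89% fell, beside 9.14% and 9.07% of all tested genes. The share that passed is near this background. At an adjusted p below 0.05, 7 members rose and 7 fell, while 36.8% of all tested genes passed. With a change of over 2-fold asked for as well, GAA was the 1 member called, beside 1.55% of all tested genes. The median log2 fold change of the 38 genes was -0.01 and that of all tested genes -0.0019, with 19 members above 0 and 19 below. Of the 38 genes 10 were higher and 8 lower in all siAgrin than in all siControl libraries, which is 26.3% and 21.1% of the members beside 25.0% and 24.9% of all tested genes. In bulk RNA, fewer cells that express a gene and less of its RNA per cell cannot be told apart.

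**Figure D1:**
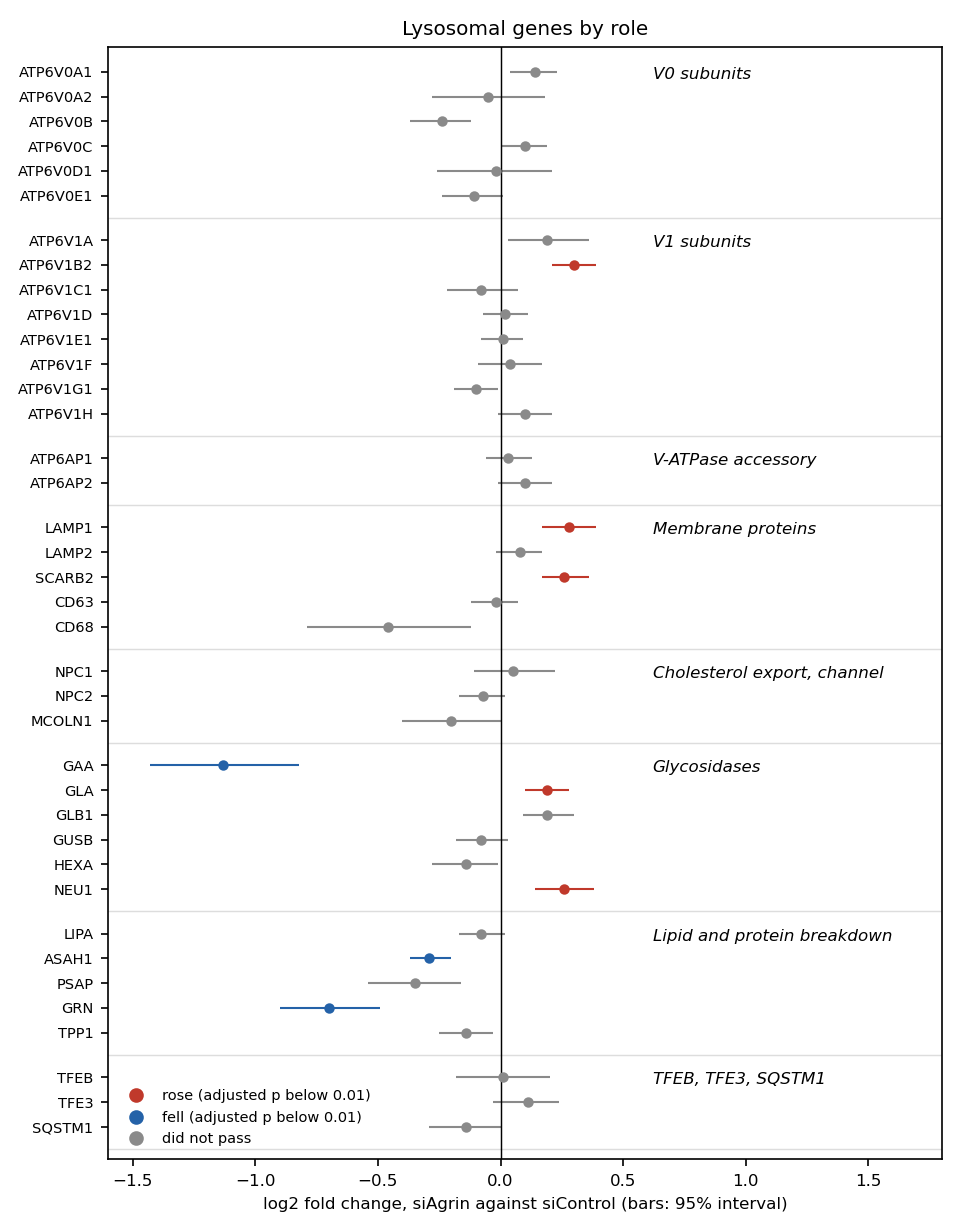
Log2 fold change of each of the 38 genes, siAgrin against siControl, grouped by role. Points are limma estimates on log2(CPM + 0.5) with 95% intervals (n = 3 libraries a group), red for the 5 genes that rose, blue for the 3 that fell and grey for the 30 that did not pass. GAA, at -1.13, and GRN, at -0.70, have the lowest estimates, and the interval of GRN overlaps those of GAA and CD68.

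The rises depended on single libraries more than the falls did. With siControl 2 or siAgrin 3 left out none of the 5 rises passed, and with siControl 3 left out only ATP6V1B2 did. Their log2 fold changes stayed between 0.17 and 0.32 with any 1 of the 6 libraries left out, while the share of all genes called went down to 5.11%, 4.38% and 5.86%. NEU1 and GLA were also lost without siControl 1, GLA without siAgrin 1 and NEU1 without siAgrin 2. The falls of GAA and ASAH1 passed with each of the 6 libraries left out, and that of GRN with all but siAgrin 3 (adjusted p = 0.011 without it). Without siAgrin 2, 7 members fell and 4 rose, the added falls being PSAP, TPP1, CD68 and ATP6V0B, and 25.8% of all genes were called.

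Few V-ATPase genes passed the test. Of its 16 listed genes 1 rose and none fell, which is 6.25% called beside the 18.2% of all tested genes. That gene was ATP6V1B2, which encodes the B2 subunit of the V1 sector, 1 of the subunits that form the ATP-hydrolysing ring. It measured 65.8, 66.0 and 66.7 CPM in siControl against 82.3, 79.0 and 83.1 CPM in siAgrin libraries. Every siAgrin library was above every siControl library, by more than either group spread (log2 fold change 0.30 ± 0.039, here and below with its standard error, limma adjusted p = 0.0013). Summed over the 16 genes the level was 1254 ± 25.4 CPM in siControl against 1281 ± 21.3 CPM in siAgrin libraries (SD, n = 3).

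The other V1 genes did not pass. ATP6V1A, the catalytic partner of B2 in the ring, measured 129, 105 and 110 CPM in siControl against 131, 126 and 135 CPM in siAgrin libraries. Its groups overlapped only through siControl 1, and it passed with that library left out at an adjusted p of 0.0080 (log2 fold change 0.19 ± 0.074, adjusted p = 0.071 with all libraries). For ATP6V1D and ATP6V1E1, parts of the central rotor and of a peripheral stalk, the 95% intervals of the log2 fold change were -0.07 to 0.11 and -0.08 to 0.09. A change as large as that estimated for ATP6V1B2 lay outside both intervals. ATP6V1G1, another stalk subunit, was lower in every siAgrin library at a log2 fold change of -0.10, and ATP6V1H, a regulatory subunit, was higher in every one at 0.10 (adjusted p = 0.067 and 0.14 from limma). ATP6V1C1 and ATP6V1F had log2 fold changes of -0.08 and 0.04 with overlapping groups. ATP6V1F shares 20.6% of its exon bases with KCP on the opposite strand.

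None of the 6 genes of the membrane sector V0 passed. ATP6V0B, a proton-carrying proteolipid of the rotor, came closest, with 79.4, 82.3 and 81.6 CPM in siControl against 72.7, 69.4 and 63.5 CPM in siAgrin libraries. Its groups did not overlap (log2 fold change -0.24 ± 0.055, adjusted p = 0.011). ATP6V0C, the main proteolipid, lay on the other side, at 62.9, 62.7 and 65.6 CPM against 66.8, 69.1 and 68.7 CPM, with groups that did not overlap either (log2 fold change 0.10, adjusted p = 0.095). ATP6V0C shares 60.9% of its annotated exon bases with a longer gene on the same strand, so its level is uncertain. ATP6V0E1 and ATP6V0D1 had log2 fold changes of -0.11 and -0.02. The accessory genes ATP6AP1 and ATP6AP2, the latter also known as the prorenin receptor, had 0.03 and 0.10, and ATP6AP2 was the one of them higher in every siAgrin library.

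Genes for alternative forms of the B and a subunits, which are not among the 38, fell. They are 2 of 5 paralogues tested, and none of the 5 rose, beside 9.07% and 9.14% of all tested genes that fell and rose. ATP6V1B1, the B isoform known from kidney intercalated cells and other proton-secreting epithelia, fell from 19.9, 21.5 and 18.6 CPM in siControl to 7.79, 13.0 and 8.90 CPM in siAgrin libraries. The groups did not overlap, although siAgrin 2 lay closer to the controls than siAgrin 1 and 3 did (log2 fold change -1.01 ± 0.164, adjusted p = 0.0030). Per kilobase of annotated exon, ATP6V1B1 made up 47.0% ± 1.93 of the B transcripts in siControl and 26.1% ± 5.76 in siAgrin libraries (SD, n = 3). Its share was 21.7%, 32.6% and 23.9% in siAgrin 1, 2 and 3, below all siControl values (exact permutation test, two-sided p = 0.1, the smallest that 3 libraries against 3 can give). The call for ATP6V1B1 was lost without siControl 1, 2 or 3 or siAgrin 3, at adjusted p = 0.012, 0.019, 0.014 and 0.021, and its log2 fold change ranged from -1.22 to -0.86 with 1 library left out.

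TCIRG1, which encodes the a3 subunit known from osteoclasts and secretory lysosomes, fell in the same way. It measured 28.7, 33.3 and 31.4 CPM in siControl against 22.3, 24.6 and 20.5 CPM in siAgrin libraries (log2 fold change -0.46 ± 0.080, adjusted p = 0.0040). ATP6V0A1, the widely used a1 subunit, was at 43.0, 40.8 and 40.8 CPM against 45.2, 46.4 and 45.5 CPM, higher in every siAgrin library without passing (log2 fold change 0.14, adjusted p = 0.039). ATP6V0A2, the a2 subunit of the Golgi, measured 18.7, 16 and 17.1 CPM against 19.3, 15.0 and 15.9 CPM, and its groups overlapped. Of the a transcripts per kilobase, TCIRG1 made up 61.6% ± 2.71 in siControl and 52.0% ± 2.26 in siAgrin libraries (SD, n = 3), and ATP6V0A1 29.3% ± 1.72 and 37.7% ± 1.59. The shares of TCIRG1 did not overlap between the groups (exact permutation test, two-sided p = 0.1). Its call was lost without siControl 2, siControl 3 or siAgrin 3, at adjusted p = 0.023, 0.022 and 0.022.

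**Figure D2:**
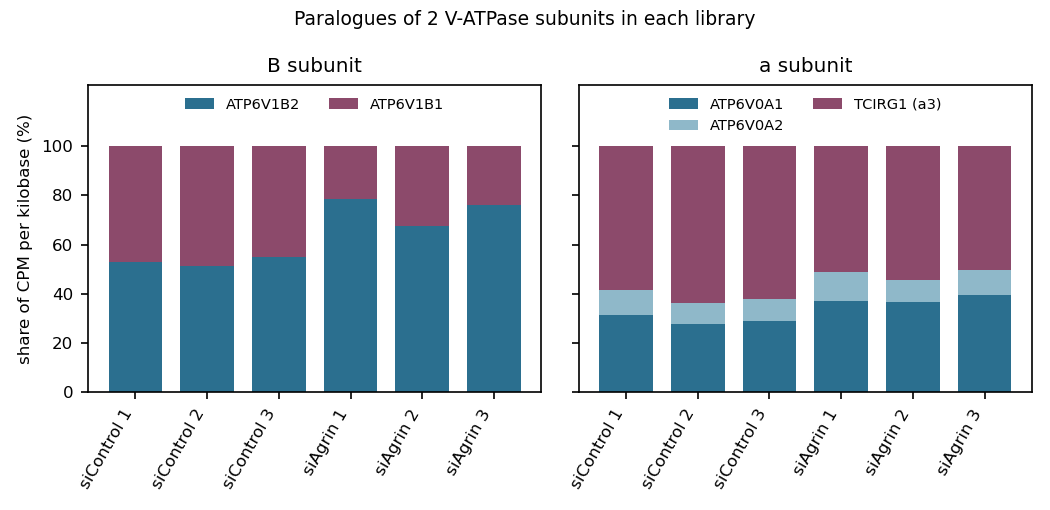
Share of each paralogue in the CPM per kilobase of exon of the B subunit (left) and the a subunit (right) of the V-ATPase, one bar per library. ATP6V1B1 lies at 45.1% to 48.9% in the 3 siControl and 21.7% to 32.6% in the 3 siAgrin libraries, and TCIRG1 at 58.6% to 63.9% and 50.2% to 54.5%.

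At the other paired positions 1 paralogue held nearly all of the transcript in both groups. Per kilobase ATP6V1C1 made up 98.9% of C in siControl and 98.3% in siAgrin libraries, ATP6V1E1 99.3% and 99.4% of E, ATP6V1G1 99.7% and 99.5% of G, and ATP6V0E1 96.5% and 95.3% of e. ATP6V0E2 measured 15.7, 14 and 12.7 CPM in siControl against 19.7, 15.6 and 17.8 CPM in siAgrin libraries, where siControl 1 was above siAgrin 2 (adjusted p = 0.043). ATP6V0A4, ATP6V0D2, ATP6V1G3 and ATP6AP1L were not analysed here, so the a shares leave out the a4 subunit.

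Among the lysosomal membrane proteins LAMP1 and SCARB2 rose, while LAMP2, CD63 and CD68 did not pass. LAMP1, on chromosome 13 (GRCh38, 113297239 to 113323672), encodes an abundant glycoprotein of the lysosomal membrane. Its level was 385, 358 and 363 CPM in siControl against 461, 433 and 450 CPM upon Agrin knockdown. The lowest siAgrin value lay well above the highest siControl value (log2 fold change 0.28 ± 0.048, adjusted p = 0.0038). SCARB2, on chromosome 4 from 76158737 to 76234536, encodes LIMP-2, the receptor that carries glucocerebrosidase to lysosomes. It measured 126, 127 and 124 CPM against 145, 153 and 154 CPM (log2 fold change 0.26 ± 0.041, adjusted p = 0.0026). LAMP2, whose isoforms serve in chaperone-mediated autophagy and lysosome fusion, measured 275, 264 and 262 CPM against 273, 286 and 286 CPM, with siAgrin 1 inside the control range. Its interval of -0.02 to 0.17 still holds a rise smaller than that of LAMP1, and the difference between the 2 genes was not tested.

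The LAMP1 promoter is shown because it carried the most E-boxes among the 29 of the 38 genes that had a promoter window in the RefSeq table. Its window, from 250 bases before the transcription start to 50 after, holds 6 of them, and 4 lie in a repeat with starts 16, 17 and 17 bases apart. In the stretch below, chr13:113297040-113297109 on the plus strand of GRCh38.p14, capitals mark each CACGTG.
LAMP1 upstream repeat: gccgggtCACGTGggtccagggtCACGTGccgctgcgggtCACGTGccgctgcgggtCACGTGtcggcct

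CD63, a tetraspanin of late endosomes and exosomes, had a log2 fold change of -0.02 with an interval of -0.12 to 0.07. CD68, the scavenger receptor family member best known from macrophages, varied most between replicates of all 38 genes, at 35.3, 43.1 and 46.3 CPM in siControl against 24.8, 36.6 and 29.6 CPM in siAgrin libraries. The groups overlapped through siControl 1 and siAgrin 2, and the difference did not pass (log2 fold change -0.46 ± 0.145, adjusted p = 0.041). CD68 shares 81.6% of its exon bases with a noncoding gene on the same strand, so its level is uncertain as well. NPC1 and NPC2, which hand cholesterol out of the lysosome, had log2 fold changes of 0.05 and -0.07 with overlapping groups. MCOLN1, the TRPML1 calcium channel of the lysosomal membrane, had the lowest CPM of the 38 genes, not corrected for length. It measured 7.47, 6.69 and 7.04 CPM against 6.77, 5.74 and 5.82 CPM (log2 fold change -0.20, adjusted p = 0.11). Its groups overlapped through siControl 2 and siAgrin 1.

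**Figure D3:**
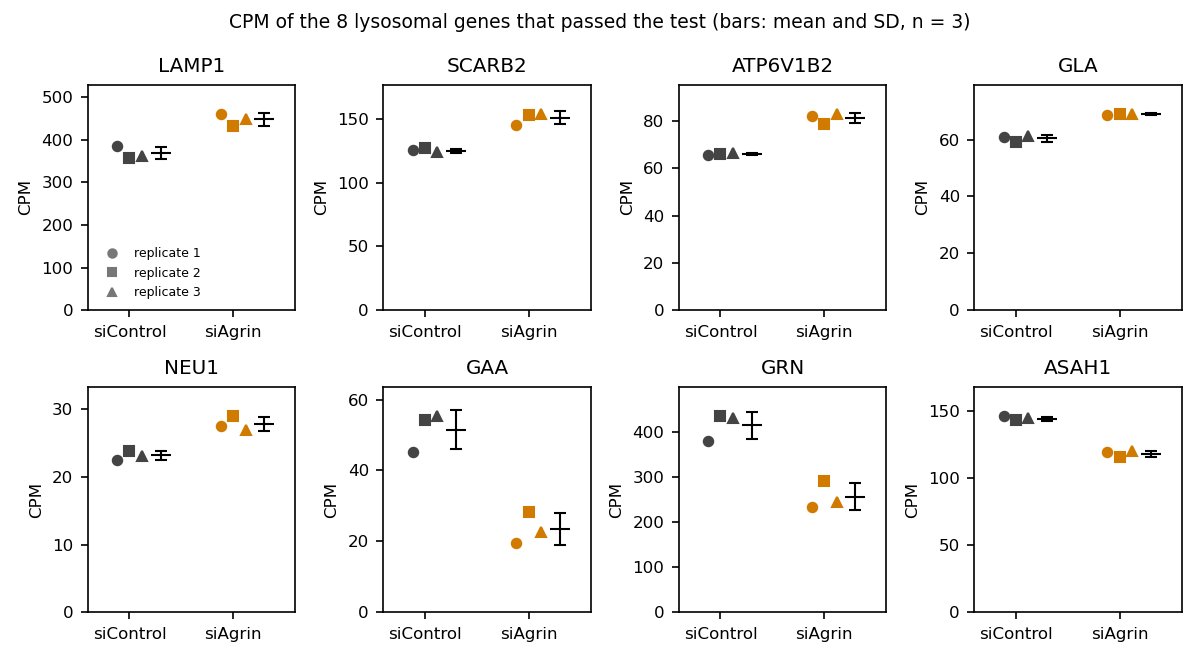
CPM of the 8 genes that passed the test in each library (circle, square and triangle for replicates 1, 2 and 3), with the mean and SD of each group (n = 3). The groups do not overlap in any of the 8 panels. For GAA and GRN siControl 1 is the lowest control and siAgrin 2 the highest siAgrin library.

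GAA showed the largest change of all 38 genes, and 1.19% of the tested genes changed by more in either direction. It encodes acid alpha-glucosidase, which releases glucose from lysosomal glycogen and is deficient in Pompe disease, and lies on chromosome 17 from 80101533 to 80119881. GAA went from 45.1, 54.1 and 55.3 CPM in siControl to 19.5, 28.4 and 22.7 CPM in siAgrin libraries. Group means of 51.5 ± 5.58 and 23.5 ± 4.53 CPM (SD, n = 3) resulted, and the gap between the groups exceeded the spread in each (log2 fold change -1.13 ± 0.134, limma adjusted p = 9e-04). By the two-sided exact permutation test p was 0.1, the floor for 3 against 3 libraries.

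Of the other 5 glycosidases 2 rose and none fell, beside 9.14% and 9.07% of all tested genes. NEU1, the lysosomal sialidase encoded on chromosome 6 from 31857659 to 31862905, rose from 22.5, 23.9 and 23.1 CPM to 27.5, 29 and 26.9 CPM (log2 fold change 0.26 ± 0.052, adjusted p = 0.0072). GLA, the alpha-galactosidase A deficient in Fabry disease, rose from 60.9, 59.0 and 61.3 CPM to 68.6, 69.0 and 69.0 CPM, the tightest siAgrin group of the 38 genes (log2 fold change 0.19 ± 0.038, adjusted p = 0.0075). Both were separated from the controls in every library. GLA shares 8.99% of its exon bases with RPL36A on the opposite strand. GLB1, beta-galactosidase, was close behind at 64.9, 65.3 and 65.6 CPM against 71.1, 77.3 and 76.0 CPM without passing (log2 fold change 0.19, adjusted p = 0.012). HEXA, the alpha chain of beta-hexosaminidase, and GUSB, beta-glucuronidase, had log2 fold changes of -0.14 and -0.08 with overlapping groups.

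The windows of NEU1 and GAA are given for comparison with LAMP1, since these 3 genes passed the test and held E-boxes. NEU1 had 1, at chr6:31862933-31862956 on the minus strand, and GAA had 2, at chr17:80101496-80101519 and chr17:80101541-80101564 on the plus strand. Both GAA matches, but not that of NEU1, lie in the longer palindrome TCACGTGA of the CLEAR element. So do 2 of the 6 LAMP1 matches, which lie nearer the transcription start and outside the stretch printed above. Capitals mark CACGTG as before.
NEU1: ctgcgtgatCACGTGggaggagat
GAA distal: aggccgcgtCACGTGacccaccgc
GAA proximal: cccgccggtCACGTGacccgcctc

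All 5 genes of lipid and protein breakdown were lower in all siAgrin than in all siControl libraries, and 2 of them passed. Over all tested genes 24.9% were lower in this way and 9.07% fell. GRN encodes progranulin, a secreted and lysosomal glycoprotein whose loss causes a neuronal ceroid lipofuscinosis, and lies on chromosome 17 from 44345246 to 44353106. It fell from 380, 434 and 430 CPM in siControl to 233, 291 and 244 CPM in siAgrin libraries (log2 fold change -0.70 ± 0.089, adjusted p = 0.0012). ASAH1, acid ceramidase, fell from 146, 143 and 145 CPM to 119, 116 and 120 CPM, with the smaller change but the tighter groups (log2 fold change -0.29 ± 0.037, adjusted p = 0.0011). Acid ceramidase splits ceramide, a lipid class that also forms part of the epidermal barrier.

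PSAP encodes prosaposin, the precursor of the saposins that help sphingolipid hydrolases and a binding partner of progranulin. It measured 1383, 1495 and 1525 CPM in siControl against 1061, 1287 and 1124 CPM in siAgrin libraries, and siAgrin 2 lay nearest to the controls (log2 fold change -0.35 ± 0.082, adjusted p = 0.014). Per kilobase of exon it was the highest of the 38 genes, at 471 CPM per kilobase in siControl libraries against 118 for GRN and 99.5 for NPC2, while ATP6V0A2, MCOLN1 and TFEB were the lowest at 1.00, 1.79 and 1.95. TPP1, a tripeptidyl peptidase, and LIPA, the acid lipase of cholesteryl esters, had log2 fold changes of -0.14 and -0.08 (adjusted p = 0.048 and 0.19). The summed level of the 5 genes went from 2390 ± 103 to 1870 ± 159 CPM (SD, n = 3), and without PSAP from 923 to 713 CPM. Of these 5 genes GRN, PSAP and TPP1 had siControl 1 as the lowest control, siAgrin 1 as the lowest and siAgrin 2 as the highest siAgrin library. So did GAA, HEXA, CD68 and NPC2, and also ATP6V1F, GLB1 and TFE3, whose fold changes were above 0. Of all 38 genes 52.6% were lowest in siAgrin 1 among the siAgrin libraries and 52.6% highest in siAgrin 2, beside 40.2% and 40.6% of all tested genes. The highest summed level of fibroblast markers was also in siAgrin 2, and their part in this order was not tested. Over the 5 membrane glycoproteins the sum went from 971 ± 18.5 to 1076 ± 7.84 CPM, with LAMP1 alone going from 369 to 448 CPM. Of these 5 genes 3 had log2 fold changes above 0 and 2 below. Over 25 further lysosomal membrane proteins, 24 of them tested, the sum went from 1055 ± 5.09 to 981 ± 9.29 CPM.

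GAA and GRN are among the members richest in G and C, at 64.8% and 62.4% of the longest annotated transcript. Across 11877 tested genes the log2 fold change had a Spearman correlation of -0.128 with GC content. In a fit corrected for GC content and length, chosen after the data were seen, all 8 genes passed again, with GAA at -1.03 and GRN at -0.63, and GLB1 and PSAP passed too.

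The transcription factors themselves did not pass. TFEB measured 11.7, 14.5 and 13.2 CPM in siControl against 13.7, 12.7 and 13.2 CPM in siAgrin libraries, with fully overlapping groups and an interval of -0.18 to 0.20 for the log2 fold change. TFE3 measured 58.3, 60.4 and 61.6 CPM against 59.9, 69.7 and 65.1 CPM (log2 fold change 0.11, adjusted p = 0.19). Both factors are known to be controlled mainly by phosphorylation and nuclear entry, which RNA levels do not show. SQSTM1, the autophagy receptor p62, had a log2 fold change of -0.14 (adjusted p = 0.10), and 21.0% of its exon bases lie opposite MRNIP.

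Genes with an E-box in the promoter window were found among those that rose, those that fell and those that did not pass. The RefSeq table held windows for 29 of the 38 genes, and CACGTG, which reads the same on both strands, was found for 8 of them. Those 8 are 27.6% of the members with a window, beside 12.7% of 9529 tested genes with one. By single windows it was found in 8 of 45 member windows, beside 9.34% of 13909 windows of tested genes and 7.26% of all 35116. Of the 8 genes LAMP1 and NEU1 rose, GAA fell and 5 did not pass, with a median log2 fold change of -0.06. Of the 21 genes with a window and no E-box 2 rose and 1 fell, with a median of 0.02. Of the 9 genes without a window 1 rose and 1 fell, with a median of -0.08. Over all tested genes 9.14% rose and 9.07% fell, and differences between these small sets were not tested. The full core TCACGTGA, which contains the E-box, was found in LAMP1, GAA, MCOLN1, ATP6V0D1 and ATP6V1G1, or 17.2% of the members with a window beside 2.43% of tested genes. A match is a run of letters and not a measured binding site.

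The core matches of genes that did not pass are shown to set beside those of GAA, since they hold the same 8 letters. They lie at chr19:7522574-7522597 and chr19:7522601-7522624 on the plus strand for MCOLN1, at chr16:67481202-67481225 on the minus strand for ATP6V0D1 and at chr9:114587702-114587725 on the plus strand for ATP6V1G1.
MCOLN1 distal: agaggcggtCACGTGaggggctct
MCOLN1 proximal: ctaccgggtCACGTGaccgaggca
ATP6V0D1: ccttatggtCACGTGaggcgcttg
ATP6V1G1: ctgtgcggtCACGTGacaacgggg

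**Figure D4:**
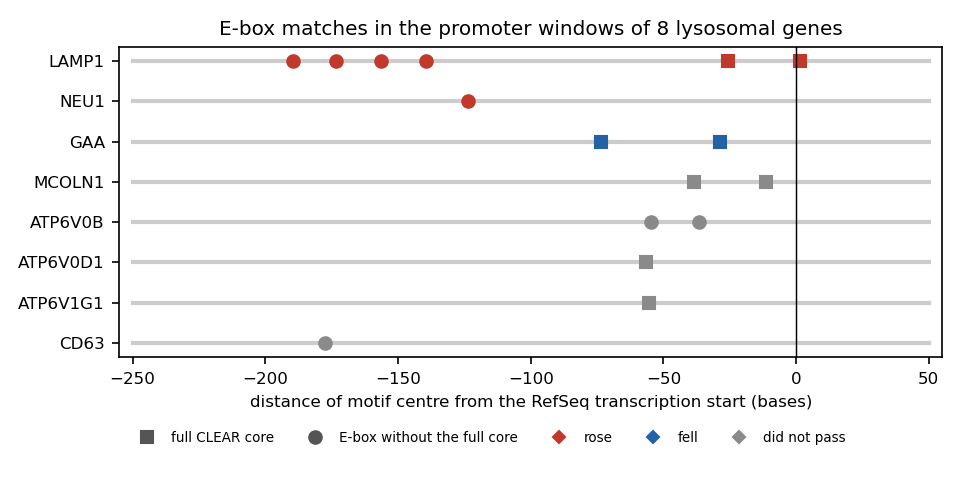
Position of each CACGTG in the promoter windows of the 8 genes that hold one, as the distance in bases of its centre from the RefSeq start. Squares mark the full core TCACGTGA, circles an E-box without it, and colours show the call. LAMP1 has 6 matches and rose, GAA has 2 and fell, and MCOLN1 has 2 and did not pass.

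Genes of the same organelle outside these 38 moved in both directions. Over 8 further lists 147 genes were tested, of which 15 rose and 18 fell, or 22.4% called beside 18.2% of all tested genes. Of 27 further hydrolases and their helpers 3 rose and 6 fell, or 33.3% called. IDUA, which cuts iduronic acid from heparan and dermatan sulfate, fell from 3.6 ± 0.109 to 1.58 ± 0.149 CPM (n = 3, SD, and a log2 fold change of -0.98, adjusted p = 3.3e-04), and HGSNAT, another enzyme of heparan sulfate breakdown, from 54.3 to 39.5 CPM. SUMF1, which activates the sulfatases, fell from 7.35 to 4.79 CPM. Acid sphingomyelinase (SMPD1), which makes the ceramide that ASAH1 splits, rose from 4.77 ± 0.454 to 8.18 ± 0.605 CPM (log2 fold change 0.72, adjusted p = 0.0011). Of 15 cathepsins and other proteases 2 rose and 4 fell, or 40% called. Among the falls CTSH went from 355 to 255 CPM and CTSS from 41.8 to 16.1 CPM. The rises were CTSZ from 111 to 145 CPM and CTSV from 57.4 to 70.3 CPM.

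Of 11 genes of V-ATPase assembly and control 2 rose and 1 fell, or 27.3% called beside 18.2% of all tested genes. DMXL2, a subunit of the RAVE-like complex that joins V1 to V0, rose from 35.2 ± 2.16 to 48.4 ± 1.58 CPM (n = 3, SD, and a log2 fold change of 0.46, adjusted p = 9.9e-04). NCOA7, whose product binds V1, rose from 222 to 285 CPM and ROGDI, another RAVE component, fell from 34.8 to 28.1 CPM. Of 24 further membrane proteins LAMP3 (2.00 to 3.05 CPM) and PIP4P2 (5.39 to 7.48 CPM) rose, and the cation channel TPCN1 fell from 19.8 to 14.3 CPM. These 3 calls are 12.5% of the 24 genes, of which 17 had a log2 fold change below 0 and 7 above. Of 14 genes that sort hydrolases to lysosomes 2 rose and 3 fell, or 35.7% called. The cation-independent mannose 6-phosphate receptor (IGF2R) rose from 173 to 211 CPM and the clathrin adaptor AP1M1 from 33.7 to 44.3 CPM, while GNPTG, a subunit of the enzyme that makes the mannose 6-phosphate tag, fell from 29.1 to 23.3 CPM and the adaptor GGA2 from 90.6 to 80.0 CPM.

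Of 22 genes of TFEB control and mTORC1 at the lysosome 4 rose and 1 fell, or 22.7% called beside 18.2% of all tested genes. The Ragulator subunit LAMTOR5 rose from 46.7 ± 1.16 to 56.8 ± 0.281 CPM (n = 3, SD, and a log2 fold change of 0.28, adjusted p = 0.0017), FNIP2, a partner of folliculin, from 4.48 to 6.15 CPM and NPRL3 from 24.2 to 29 CPM, while the GTPase RRAGB fell from 10.6 to 8.03 CPM. None of 30 autophagy genes passed in limma, beside the same 18.2% of all tested genes. At an adjusted p below 0.05, 3 of them rose and 6 fell, beside 36.8% of all tested genes called. At 0.01 none passed in edgeR either, where 1204 of all tested genes rose and 1156 fell. In DESeq2 1 autophagy gene rose and 3 fell, beside 1702 and 1659 of all 13050 tested genes. The calls in the 8 lists were reduced to 3 rises and 3 falls when siControl 2 was left out, to 4 and 4 without siControl 3, to 2 and 3 without siAgrin 3 and to 8 and 11 without siControl 1. Of the genes named from these lists IDUA, DMXL2, CTSS, CTSH and CTSZ passed with each of the 6 libraries left out, and the others did not.

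**Figure D5:**
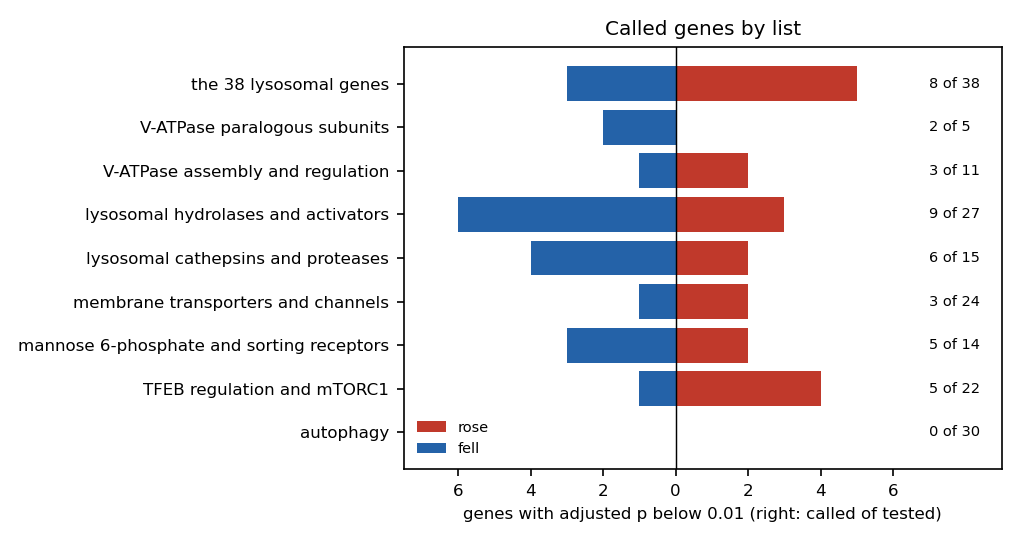
Number of genes that rose (red, right) and fell (blue, left) at a limma adjusted p below 0.01 in the 38 genes and in 8 further lists of lysosomal, mTORC1 and autophagy genes, with the number called of the number tested at the right. The hydrolase list has 3 rises and 6 falls of 27, and the autophagy list none of 30, beside 18.2% of all tested genes called.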

How the data were processed

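RNA from HaCaT cells was sequenced as polyadenylated, stranded libraries, 3 of siControl and 3 of siAgrin. Per the labels and the study's methods, the authors aligned reads to hg38 with STAR 2.6.1d, used SAMtools, counted reads per gene with HTSeq and scaled them with edgeR, and the deposited values are CPM for 14168 gene names. Whether HTSeq counted by strand, and which genes the authors left out, is not given in the sources used here. The deposited CPM came out as whole reads within 0.01 read when divided by the value of 1 read, which gave 40958553 to 43312708 reads per library. Errors are the spread between libraries, which includes counting error.

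The 13050 genes that reached 0.5 CPM in 3 or more of 6 libraries were tested. limma 3.58.1 with a variance trend (R 4.3.3) was run on log2(CPM + 0.5), which understates the change of low genes, with Benjamini-Hochberg adjustment over all tested genes and a threshold of 0.01, the false discovery rate part of the study's criterion. Its other part, a change of over 2-fold, was not asked for, and was added as an alternative after the data were seen. Intervals are 95% intervals of that fit. edgeR 4.0.16 (quasi-likelihood) and DESeq2 1.42.0 on the recovered reads, other pseudocounts, filters, scalings, variance models, a replicate block and leaving out each library were the alternatives, and a correction for GC content and length was added after the data were seen. Scripts were tested on simulated data. The members and all gene lists were chosen with earlier results of these data known. Every member was accounted for. Values per library were given for called members, TFEB, TFE3, MCOLN1, LAMP1, LAMP2, paralogue pairs and some others chosen after their values were seen, and up to 4 called genes with the smallest p were named in each further list. Positions, exon lengths and overlaps come from GENCODE release 44 on GRCh38 (12889 names matched), which may differ from the annotation used for counting, and promoter windows and sequences from RefSeq, GRCh38.p14. Motifs were searched as exact letters on both strands.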

Additional observations from a re-analysis of the deposited data

How the results depend on the processing

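The 38 genes gave 684 fold changes under alternatives (18 for each gene), of which 20 lost the call and 17 gained it, and none of the 8 called genes changed sign. The number of members that fell was 6 in DESeq2, 6 with a replicate block and 7 at an adjusted p below 0.05, against 3. The number that rose was 6, 6 and 7 in the same settings, against 5. With 1 library left out the falls ranged from 2 to 7 and the rises from 0 to 5. Over all genes 1702 rose and 1659 fell in DESeq2, 1952 and 2014 with the replicate block and 2382 and 2420 at 0.05, against 1193 and 1184. With 1 library left out 273 to 1674 of all genes rose and 298 to 1688 fell. With a change of over 2-fold asked for as well, 0 members rose and 1 fell, 38 and 164 of all genes, and 0 and 2 in the 8 further lists. In the 8 further lists 24 rose and 27 fell with the replicate block, 27 rose and 40 fell at 0.05, and 2 to 19 rose and 3 to 24 fell with 1 library left out. The median log2 fold change of the 38 genes ranged from -0.031 to 0.009 with 1 library left out. The share of ATP6V1B1 in siControl was 52.3% with the longest transcript as length. With 1 library left out it was 46.1% to 48.0% in siControl and 22.8% to 28.3% in siAgrin, and that of TCIRG1 was 60.4% to 63% and 50.7% to 52.9%. DESeq2 and the replicate block each added ATP6V0B, CD68, GLB1 and PSAP to the calls, and limma without a trend lost GLA (adjusted p = 0.016). The cause of these differences was not tested, and fits without 1 library gave from 571 to 3362 calls over all genes against 2377. Deviations of same-numbered libraries from their group means correlated at 0.531, 0.381 and -0.00185 across genes. siAgrin 1 and 2 correlated best with the siControl library of the same number, siAgrin 2 nearly as well with siControl 3 (0.347), and siAgrin 3 best with siControl 1 (0.0307). The labels do not say whether the numbers mark pairs, and these values do not settle it. The main fit took no pairs, and in limma the calls of ATP6V0B, CD68, GLB1 and PSAP depended on that choice.

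An exact permutation test of 3 against 3 libraries cannot go below 0.1. The calls rest on each gene's own spread between libraries together with a spread estimated across genes. Whether deeper libraries would change a call was not tested.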
